A study of Oryza sativa with 6 samples.

Results

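The starch synthases of rice were examined in panicles of wild-type plants and of plants overexpressing OsEXPA7. The 10 genes were chosen by their locus identifiers, and their values were not part of the rule. Earlier results of these data were known when the choice was made. All 10 were among the 42189 loci of the deposited table. They are the granule-bound synthases Wx/GBSSI and GBSSII and the soluble synthases SSI, SSIIa, SSIIb, SSIIc, SSIIIa, SSIIIb, SSIVa and SSIVb. The table gives no gene names, so the pairing of names with loci comes from the choice of members. Only 5 of them were looked up in RefSeq, by the synonyms Wx, SSI, ALK (for SSIIa), SSII-2 (for SSIIb) and SSII-1 (for SSIIc). Each was listed on the chromosome that the locus identifier names, which does not by itself tie a name to a locus.

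Both groups were of the japonica cultivar Nipponbare, were sampled as panicles and carried the treatment label "natural". The wild type had 3 libraries and the OsEXPA7 overexpression plants had 3, described as biological replicates. OsEXPA7 is an alpha-expansin, a protein that loosens plant cell walls. The genotype label of the wild type reads EXPA7 and that of the other group EXPA7_OE, and libraries were grouped by their titles. The sources used here do not give the promoter of the transgene, the number of lines, the age of the plants, the panicle stage, or whether replicates were separate plants. The p-values therefore measure the spread between these libraries, which may be technical.

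Starch synthases add glucose from ADP-glucose to growing glucan chains. The granule-bound forms make amylose inside the starch granule, and the soluble forms extend the branches of amylopectin, with SSI acting on short chains and SSII and SSIII on longer ones. SSIV is known mainly from Arabidopsis, where it takes part in the initiation of granules. In rice, Wx/GBSSI, SSI, SSIIa and SSIIIa are the forms best known from the filling endosperm, and GBSSII, SSIIb and SSIIIb are better known from leaves and other tissues that export or briefly store carbon. Panicles before flowering hold no endosperm, but they hold green glumes and starch-storing anthers.

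Expression was given as TPM, a length-normalised relative abundance, which corrects for transcript length and allows levels of different genes to be compared. TPM keeps no read depth, so depth is unknown and no counting interval was possible. The locus paired with OsEXPA7 from general knowledge, LOC_Os03g60720, lay between 882 and 964 TPM in wild type, and between 4323 and 5077 TPM when overexpressed. Correlations of log2(TPM + 1) across loci were 0.991 to 0.993 within a genotype and 0.948 to 0.953 between the genotypes. Differences were tested with limma on log2(TPM + 1). A locus entered the fit when 3 or more libraries reached 1 TPM, which 23395 did, and a call is a Benjamini-Hochberg adjusted p under 0.05 over all of these. In this comparison 42.8% of all tested loci were called, 25.3% higher and 17.5% lower with overexpression, so a call by itself does not set a gene apart.

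Most markers of filling grain were at or near 0 in these panicles. Of 10 loci paired from general knowledge with endosperm storage proteins, 6 were listed at 0 in all 6 libraries. The summed level of the 10 was 6.24 to 7.85 TPM in wild type, against 5.49 to 5.96 TPM with overexpression, mostly from a single locus. That locus, the only 1 of the 10 to pass the filter, was not called (limma adjusted p = 0.0520). It was called lower under 7 of the 15 other settings of the fit. By contrast, 8 loci paired with the anther tapetum, the layer that feeds developing pollen, reached a sum of 3686 to 3773 TPM in the wild-type libraries, against 2320 to 2394 TPM with overexpression. Most of that fall was a single locus, with means of 1520 and 261 TPM, and the other 7 summed to 2154 to 2250 TPM against 2065 to 2131 TPM. Loci paired with green tissue gave sums of 1308 to 1395 TPM in the wild-type libraries, against 903 to 986 TPM with overexpression, over the 9 of 10 loci that were in the table. There too a single locus gave most of the fall, with means of 737 and 425 TPM, and the other 8 summed to 611 to 637 TPM against 506 to 544 TPM. Of 4 beta-expansin loci paired with mature pollen, 2 were listed at 0 everywhere and the other two stayed at or below 0.596 TPM. The 4 summed to 0.0355 to 0.0725 TPM in wild type against 0.535 to 1.19 TPM with overexpression. None passed the filter on low values, and without it 2 were called higher by limma. These 2 had nearly equal means, at 0.0275 TPM each in wild type and 0.415 and 0.384 TPM with overexpression. Whether they share reads was not tested. Of the 8 tapetum loci 2 were called higher and 4 lower, and of the 9 green loci 1 higher and 6 lower. Among all tested loci 25.3% were called higher and 17.5% lower, and no test of either list was made. The storage protein, tapetum, green and pollen sums moved with the genotype, and their part in the starch synthase results was not tested. In such bulk tissue, fewer cells of a type and less RNA per cell cannot be told apart.

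SSI was the most abundant starch synthase transcript of these panicles. In wild type SSI measured 49.4 ± 2.31 TPM (SD, n = 3) and made up 33.5% ± 0.222 of the summed TPM of the 10 genes. Next came SSIVb at 19.2 ± 0.618 TPM, SSIIIa at 18.6 ± 2.01 TPM and SSIIc at 17.1 ± 1.05 TPM, whose ranges overlapped between neighbours. GBSSII at 14.1 ± 1.25 TPM lay below them, and its range overlapped that of SSIIb at 11.9 ± 1.24 TPM. SSIVa at 6.98 ± 1.09 TPM and SSIIIb at 6.75 ± 0.532 TPM could not be ordered by their ranges. SSIIa at 2.71 ± 0.230 TPM and Wx/GBSSI at 0.383 ± 0.105 TPM stood apart at the bottom. The order of the 10 means was the same with overexpression, but there the ranges of SSIIb and SSIVa also overlapped.

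**Figure D1:**
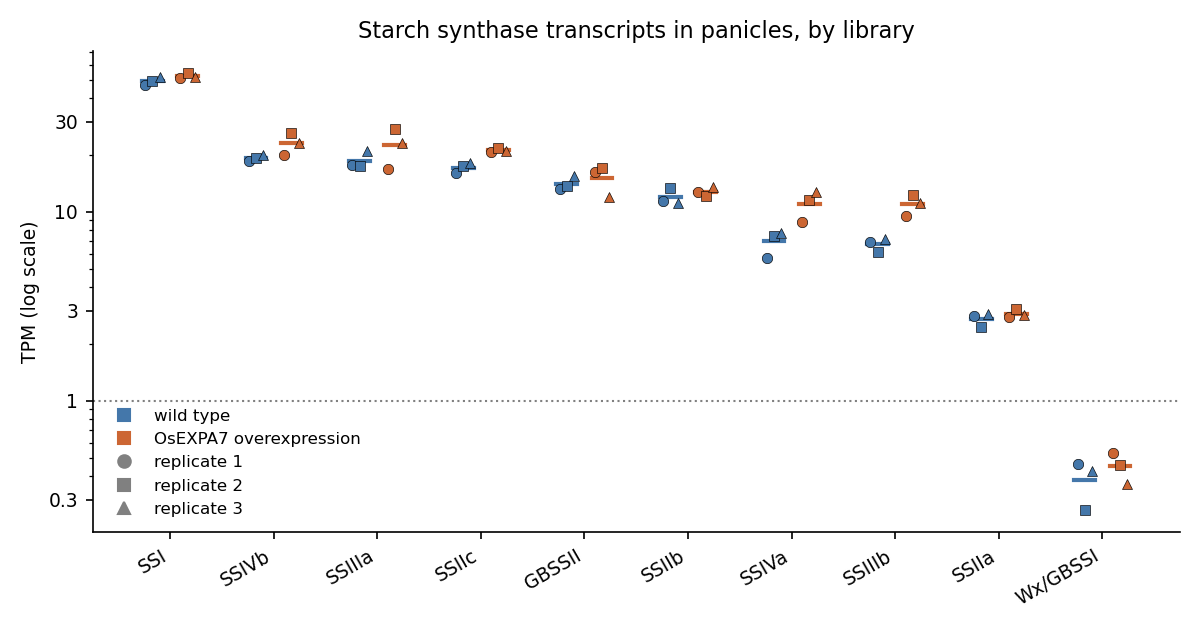
TPM of the 10 starch synthases on a log scale, ordered by their wild-type mean; points are libraries (shape gives the replicate number), bars are group means, and the dotted line marks 1 TPM. Wx/GBSSI lies below 1 TPM in every library, and SSI is highest in every library. The overexpression points of SSIIc, SSIIIb and SSIVa lie above all wild-type points, as do those of SSIVb by a small margin.

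The levels did not follow the division into endosperm and source-tissue forms. Among the forms known from endosperm, SSI was the most abundant synthase of all and SSIIIa ranked 3 in both groups, while SSIIa and Wx/GBSSI were the lowest. By mean TPM over the 6 libraries SSI ranked 4117 among the 42189 loci, and Wx/GBSSI ranked 25278. Within each family with a known endosperm form and a known leaf form, the balance differed: SSIIIa exceeded SSIIIb in every library, whereas SSIIb exceeded SSIIa and GBSSII exceeded Wx/GBSSI in every library.

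Overexpression came with higher SSIIIb, SSIVa and SSIIc transcripts and with no lower starch synthase, also at an unadjusted limma p under 0.05. Of the 10 genes 9 passed the filter on low values, and 3 of these 9 were called, all higher, a share of 33.3% against 25.3% of all tested loci called higher. For 4 of the 9 the groups were apart, all with overexpression above wild type, against 53.7% of all tested loci in either direction. The median log2 change of the 9 was 0.24, against 0.06 for all tested loci. These shares are near those of the whole table, so the count of calls describes the genes and is not a result particular to them. Lower calls made up 17.5% of all tested loci, so their absence among 9 genes does not set the genes apart either. All of the called changes were under 2-fold.

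SSIIIb (LOC_Os04g53310, chromosome 4), a long-chain synthase better known from leaves, rose with overexpression. Its 3 wild-type libraries measured 6.94, 6.15 and 7.16 TPM and its 3 overexpression libraries 9.47, 12.3 and 11.1 TPM. Every overexpression library was above every wild-type library, with a gap wider than the spread of the wild type. The mean was 1.62-fold higher. On the log2 scale the rise was 0.62 ± 0.11 (SE, n = 3 per group; limma adjusted p = 0.00191). The call held under all 15 other settings, with log2 changes from 0.54 to 0.71.

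SSIVa (LOC_Os01g52250, chromosome 1), one of the SSIV forms, also rose. It measured 5.73, 7.47 and 7.75 TPM in wild type and 8.79, 11.5 and 12.7 TPM with overexpression. The groups did not overlap, and in each of them replicate 1 was the lowest. The mean was 1.58-fold higher. On the log2 scale it rose by 0.59 ± 0.15 (SE; limma adjusted p = 0.0118). Its log2 rise and that of SSIIIb lay within their standard errors of each other, and under 4 of the 15 other settings that of SSIVa was the higher. It passed under all 15, closest to the threshold without overexpression replicate 3 (limma adjusted p = 0.0459, in a range from 0.00202).

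SSIIc (LOC_Os10g30156, chromosome 10), a soluble synthase of the SSII family, rose by less but with little scatter. Its wild-type values were 16.0, 17.4 and 18.0 TPM and its overexpression values 20.8, 21.7 and 20.9 TPM. The overexpression libraries lay close together, at a coefficient of variation of 2.37%, and above all wild-type libraries. The mean was 1.23-fold higher, a log2 rise of 0.29 ± 0.07 (SE; limma adjusted p = 0.0114). Quantile normalization, which forces the same distribution on all libraries, ended the call (log2 change 0.18, limma adjusted p = 0.0517, the highest of a range from 0.00369).

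**Figure D2:**
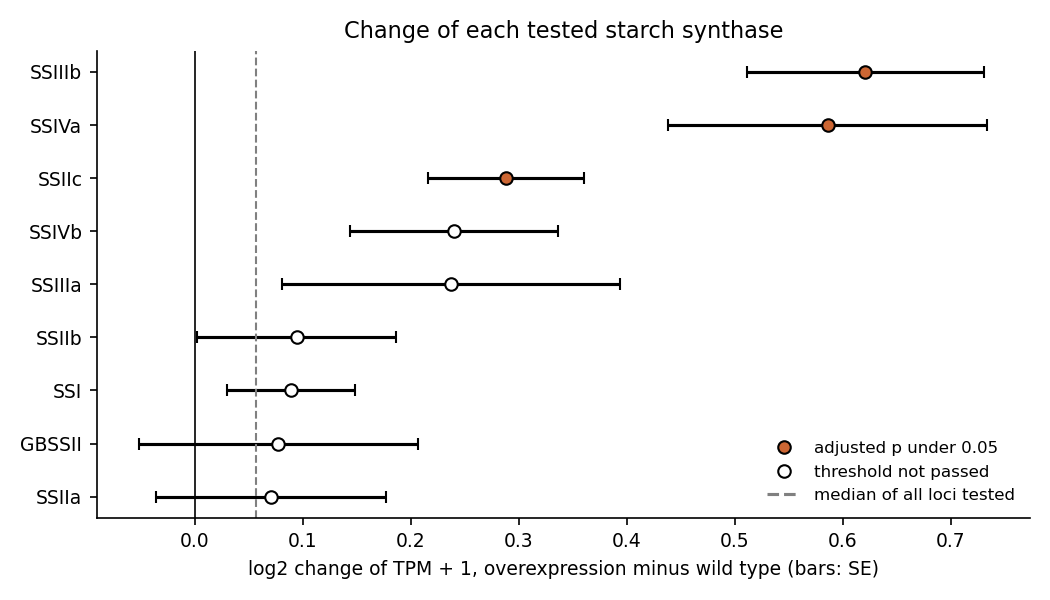
Log2 change of TPM + 1, overexpression minus wild type, for the 9 tested starch synthases, with standard errors of the limma fit; filled points passed the adjusted threshold and the dashed line is the median of all tested loci. SSIIIb and SSIVa lie near 0.6, SSIIc, SSIVb and SSIIIa between 0.2 and 0.3, and the other four below 0.1.

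SSIVb and SSIIIa had higher means with overexpression but did not pass the threshold. SSIVb (LOC_Os05g45720, chromosome 5), the more abundant SSIV form, measured 18.6, 19.2 and 19.9 TPM in wild type and 19.9, 26.0 and 23.2 TPM with overexpression. Its overexpression replicate 1 lay just above the highest wild-type library, and the other two lay clearly above. Its log2 change of 0.24 ± 0.10 (SE) had a limma adjusted p of 0.0735.

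SSIIIa (LOC_Os08g09230, chromosome 8), the main long-chain synthase of endosperm, had the widest scatter of the 9 tested genes. It measured 17.6, 17.4 and 21.0 TPM in wild type and 16.9, 27.5 and 23.2 TPM with overexpression. Overexpression replicate 1 was the lowest of all 6 libraries, while the other two were above every wild-type library. Its log2 change of 0.24 ± 0.16 (SE) had a limma adjusted p of 0.251.

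Leaving out overexpression replicate 1 changed both of these. That library held the lowest value of its group for 7 of the 9 tested genes and the highest for none. Without it, SSIIIa (log2 change 0.42, adjusted p = 0.0186 by limma) and SSIVb (0.34, adjusted p = 0.0140) passed, and 5 starch synthases were called higher instead of 3. In wild type, replicate 3 held the highest value for 8 of the 9. The median-of-ratios factors of the libraries moved the same way: 0.967, 0.973 and 1.01 in wild type and 0.994, 1.05 and 1.03 with overexpression. Their part in the difference between replicates was not tested.

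For SSI, GBSSII, SSIIb and SSIIa no difference passed the threshold. SSI (LOC_Os06g06560) measured 47.1, 49.3 and 51.7 TPM in wild type and 51.3, 54.5 and 51.8 TPM with overexpression, so the groups overlapped. Its log2 change of 0.09 had a 95% interval from -0.04 to 0.22 (limma, not adjusted for the number of genes; adjusted p = 0.253), the tightest interval of the 9.

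GBSSII (LOC_Os07g22930, chromosome 7), the granule-bound form better known outside endosperm, measured 13.1, 13.7 and 15.5 TPM in wild type and 16.1, 17.1 and 12.0 TPM with overexpression. Overexpression replicates 1 and 2 were above all wild-type libraries and replicate 3 below all of them. The 95% interval of its log2 change, -0.21 to 0.37, leaves room for a change in either direction (limma adjusted p = 0.658).

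SSIIb (LOC_Os02g51070, chromosome 2), the SSII form better known from leaves, measured 11.4, 13.4 and 11.1 TPM in wild type and 12.8, 12.1 and 13.5 TPM with overexpression. SSIIa (LOC_Os06g12450), the SSII form of endosperm, measured 2.81, 2.45 and 2.88 TPM in wild type and 2.79, 3.06 and 2.85 TPM with overexpression. Neither separated the groups. The 95% intervals of the log2 change were -0.11 to 0.30 for SSIIb (limma adjusted p = 0.437) and -0.17 to 0.31 for SSIIa (adjusted p = 0.624).

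Wx/GBSSI (LOC_Os06g04200), the amylose synthase of endosperm and pollen, was the lowest of the 10 genes and did not pass the filter. It measured 0.461, 0.264 and 0.425 TPM in wild type and 0.531, 0.460 and 0.362 TPM with overexpression. The groups overlapped. Without the filter, its log2 change was 0.07 ± 0.08 (SE; limma adjusted p = 0.559 over 32514 loci). Transcripts of granule-bound synthase were therefore almost wholly GBSSII, at 97.4% ± 0.745 of the summed TPM of both genes in wild type and 97.1% ± 0.281 with overexpression (SD, n = 3).

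The means of all 10 genes were higher with overexpression as deposited, but the direction of some depended on the scaling. After quantile normalization the log2 changes of SSI (-0.01) and GBSSII (-0.02) turned negative. GBSSII also did so with library weights (-0.06) and without overexpression replicate 2 (-0.02). None of these passed the threshold under any setting, with the lowest limma adjusted p at 0.126 for GBSSII and 0.139 for SSI.

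**Figure D3:**
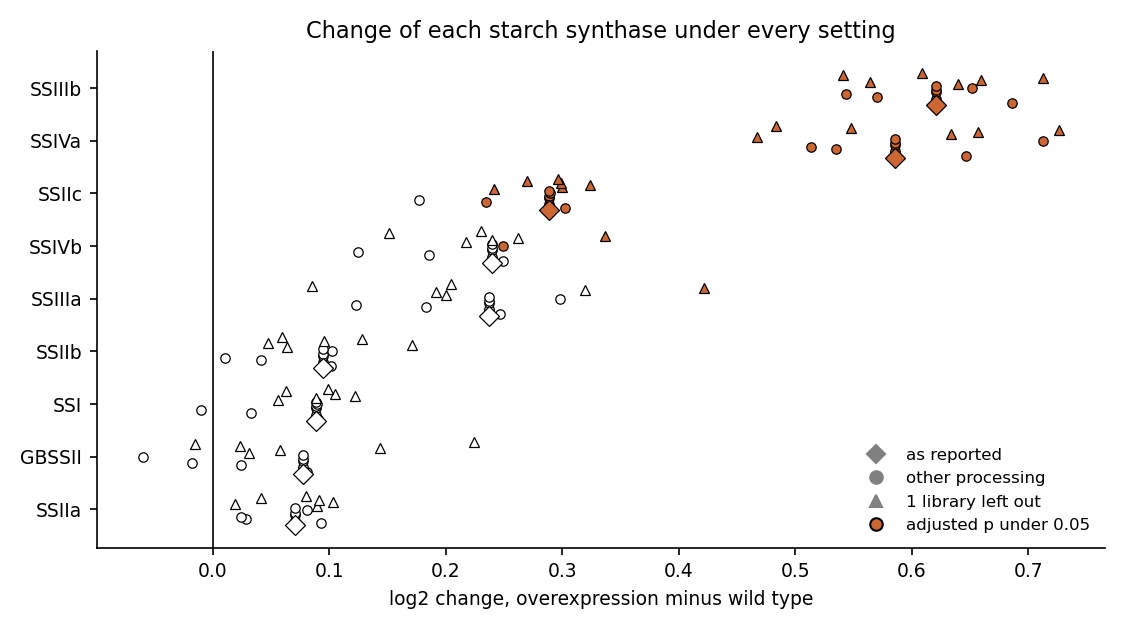
Log2 change of each tested starch synthase as reported (diamonds), under other processing (circles) and with a library left out (triangles); filled symbols have an adjusted p under 0.05. SSIIIb and SSIVa are filled at every setting, SSIIc at all but quantile normalization, SSIIIa at 1 setting (without overexpression replicate 1) and SSIVb at 2 (that setting and library weights).

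Summed over the 10 genes, starch synthase transcripts measured 147.3 ± 7.85 TPM in wild type and 172.4 ± 13.5 TPM with overexpression (SD, n = 3). The wild-type libraries held 139.8, 146.7 and 155.4 TPM and the overexpression libraries 159.4, 186.3 and 171.5 TPM, so the groups did not overlap. The difference in mean TPM was spread over several genes: 4.21 for SSIIIb, 4.04 for SSIVa, 3.99 for SSIIc, 3.86 for SSIIIa, 3.78 for SSIVb and 3.18 for SSI. GBSSII added 0.960 TPM, SSIIb 0.844, SSIIa 0.183 and Wx/GBSSI 0.0678. After quantile normalization the summed difference was 13.5 TPM in place of 25.1.

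The make-up of this pool was compared as shares within each library, which do not change when a whole library is scaled by a single factor. SSI held a smaller share with overexpression, at 32.2%, 29.3% and 30.2% against 33.7%, 33.6% and 33.3% in wild type. SSIIIb held a larger share, at 5.94%, 6.60% and 6.47% against 4.96%, 4.19% and 4.61%. SSIVa likewise held 5.52%, 6.20% and 7.41% against 4.10%, 5.09% and 4.98%. The groups did not overlap for these 3 genes and overlapped for the others. In TPM, rather than shares, the groups were apart for 53.7% of all tested loci. Being apart is thus common in this comparison and does not set these genes apart. Because the shares add up to the whole pool, a larger share of some genes lowers that of others, and no test was made of them.

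Taken by background tissue, the 4 forms known from endosperm held 48.3% ± 0.847 of the pool in wild type and 45.5% ± 0.529 with overexpression (SD, n = 3), without overlap. The 3 forms better known from source tissues held 22.3% ± 0.482 and 22.6% ± 1.40, with overlap. SSIIc, SSIVa and SSIVb together held 29.4% ± 0.605 in wild type and 32.0% ± 1.04 with overexpression, without overlap. The lower endosperm share came with the lower share of SSI, since the share of SSIIIa was 12.6% ± 0.817 in wild type and 12.9% ± 2.14 with overexpression.

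Within the SSIII and SSIV families the balance between the members differed between the groups in these libraries, and no test of it was made. The log2 ratio of SSIIIa to SSIIIb (TPM + 1) was 1.23, 1.36 and 1.43 in wild type and 0.77, 1.10 and 1.00 with overexpression. The log2 ratio of SSIVa to SSIVb was -1.54, -1.26 and -1.25 in wild type and -1.09, -1.11 and -0.82 with overexpression. In both families the less abundant member gained on the more abundant one, and the groups did not overlap. The gap between the groups was in both families narrower than the range of the wild-type libraries. The log2 ratio of SSIIa to SSIIb showed no such shift, at -1.80 ± 0.23 in wild type and -1.82 ± 0.11 with overexpression (SD, n = 3).

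**Figure D4:**
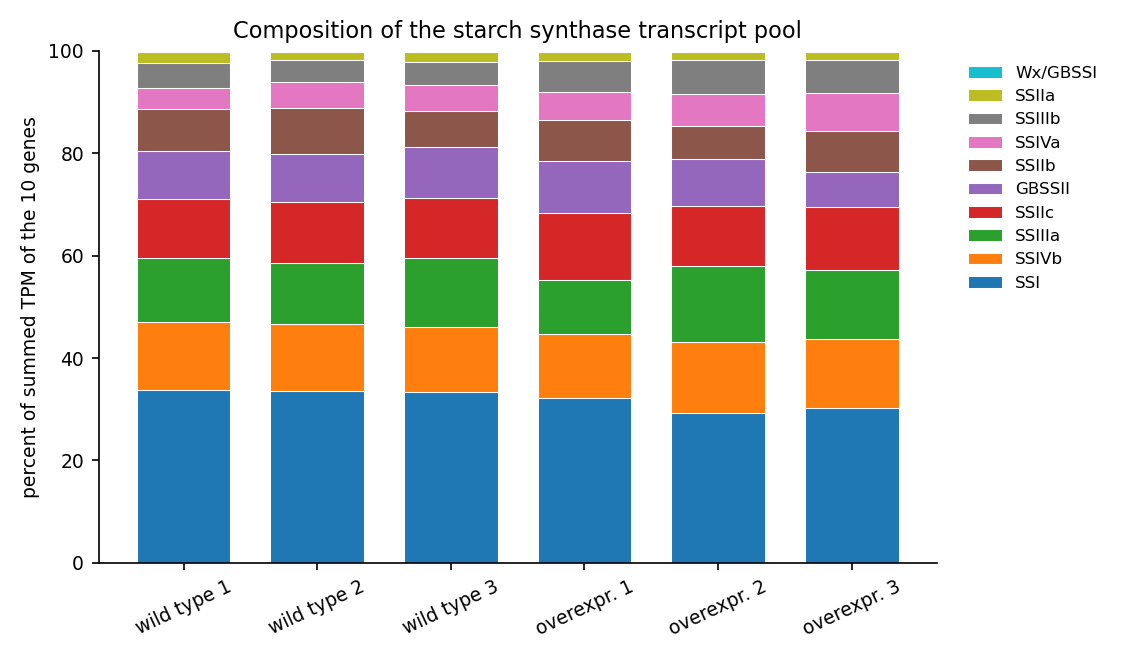
Each starch synthase as a percent of the summed TPM of the 10 genes, in each of the 6 libraries. SSI fills 33.3% to 33.7% of the wild-type bars and 29.3% to 32.2% of the overexpression bars, while the bands of SSIVa and SSIIIb are wider in all 3 overexpression libraries; Wx/GBSSI, at most 0.333%, is too thin to see.

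Other genes of starch synthesis were read from lists paired with loci from general knowledge. ADP-glucose pyrophosphorylase makes the substrate of all starch synthases. Of its 6 subunit loci, all tested, 2 were called higher, 1 lower and 3 did not pass, where 42.8% of all tested loci were called, with log2 changes from -0.36 to 0.71 and a median of 0.23. These counts were the same under all 15 other settings. The summed level was 228.7 ± 7.38 TPM in wild type and 249.4 ± 8.16 TPM with overexpression (SD, n = 3). The locus with the largest difference had means of 41.4 and 68.4 TPM. The other 5, of which 1 was called higher and 1 lower, summed to 182 to 198 TPM in wild type against 176 to 187 TPM with overexpression.

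Branching enzymes, debranching enzymes and starch phosphorylase shape the chains that the synthases extend. Of 9 such loci, 8 were in the table and tested, and 5 were called higher and none lower (1 lower at an unadjusted limma p under 0.05), where 25.3% of all tested loci were called higher and 17.5% lower, with log2 changes from -0.21 to 1.05 and a median of 0.22. This count was not stable: it fell to 1 without wild-type replicate 2 or without overexpression replicate 3, to 2 without overexpression replicate 2 or after quantile normalization, and to 3 without wild-type replicate 1, without the filter or with the replicate block. One of the 8 was called lower under 6 of the 15 other settings. The median changes of both lists lay close to that of the starch synthases (0.24) and above that of all tested loci (0.06), and no test of that difference was made.

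Of 4 loci paired with transcriptional regulators of endosperm genes, 1 passed the filter and did not pass the threshold. The summed level of the 4 was 0.671 to 1.45 TPM in wild type, against 1.21 to 1.88 TPM with overexpression.

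The chromosomal surroundings of the genes were described from the order of locus identifiers. Wx/GBSSI, SSI and SSIIa lie on chromosome 6, and the other 7 genes on 7 different chromosomes. Among the 10 tested loci on either side of each gene, 200 in all, 65 were called higher and 34 lower, a share of 49.5% against 42.8% of all tested loci. The share called ranged from 35.0% around GBSSII and around SSIVb to 75.0% around SSI. Around SSI, itself without a call, 12 neighbours were higher and 3 lower. Around the genes that rose, 11 of 20 neighbours were called for SSIIc, 12 for SSIIIb and 9 for SSIVa, in both directions.

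Of the 200 flanking loci 5 changed at least 4-fold, or 2.50%, against 1.07% of all tested loci, and 4 of the 5 flanked Wx/GBSSI or SSIIa. No role is annotated for any of them in the sources used here. Close to Wx/GBSSI, the tested loci 3 and 4 steps after it rose together. LOC_Os06g04230 measured 13.4, 14.4 and 13.9 TPM in wild type and 148.1, 143.5 and 142.4 TPM with overexpression (log2 change 3.29 ± 0.06 SE, limma adjusted p = 1.85e-09). LOC_Os06g04240 measured 3.10, 2.10 and 1.75 TPM in wild type and 46.9, 44.3 and 44.4 TPM with overexpression (log2 change 3.82 ± 0.14 SE, limma adjusted p = 8.37e-08). Wx/GBSSI stayed below 1 TPM in the same libraries.

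Before SSIIa, 2 loci fell to near 0. LOC_Os06g12320 measured 35.3, 35.6 and 33.2 TPM in wild type and 0.574, 0.826 and 0.391 TPM with overexpression (log2 change -4.49 ± 0.11 SE, limma adjusted p = 1.01e-08). LOC_Os06g12350 measured 16.8, 15.3 and 15.4 TPM in wild type and was listed at 0 in all 3 overexpression libraries. SSIIa itself differed by less than the spread between replicates. The remaining locus, LOC_Os05g45440 near SSIVb, rose from 2.47 ± 0.440 to 13.5 ± 1.98 TPM (SD, n = 3; log2 change 2.06 ± 0.14 SE, limma adjusted p = 4.65e-06).

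**Figure D5:**
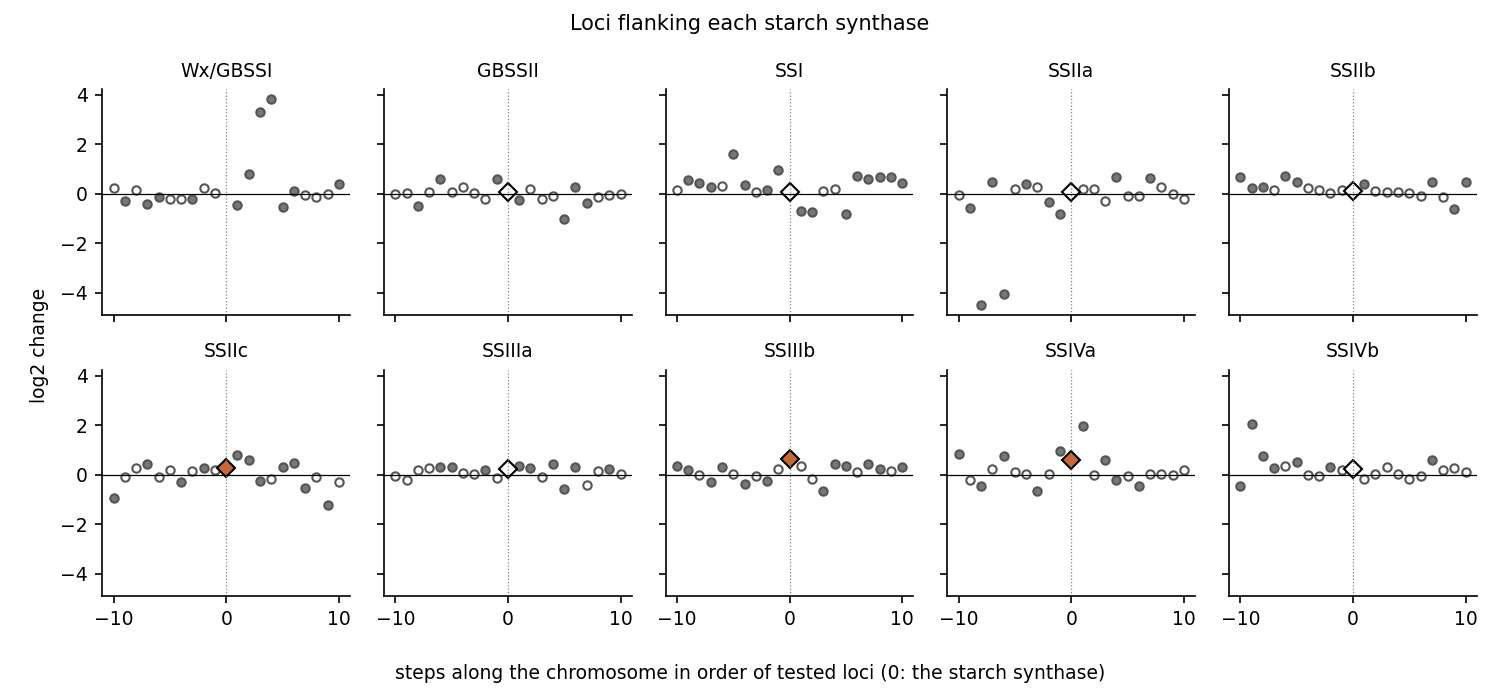
Log2 change of the 10 tested loci on either side of each starch synthase against their step in locus order, with the gene itself as a diamond at 0 (Wx/GBSSI was not tested and has none); filled symbols have an adjusted p under 0.05. The large changes beside Wx/GBSSI, at 3.29 and 3.82, and beside SSIIa, at -4.49 and -4.07, are the farthest from 0 of all loci plotted.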

How the data were processed

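RNA was sequenced from panicles in 3 wild-type and 3 OsEXPA7 overexpression libraries, as messenger RNA libraries per the labels' protocols. The authors deposited TPM for 42189 loci, with equal column totals. The aligner, quantifier and annotation were not stated in the labels or file (not given in the sources used here). Per the submitters' processing notes the builds are GRCm38 and mm10, mouse genomes, whereas the identifiers are of the rice LOC_Os form. Handling of reads shared between similar genes is likewise not given, so values of close relatives are uncertain. RefSeq names were matched by synonym in assembly ASM3414082v1, and 0 of the locus identifiers matched directly. No sequences were used here.

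The genotypes were fitted in limma 3.58.1 (R 4.3.3; empirical Bayes with variance trend, two-sided, Benjamini-Hochberg over 23395 loci that reached 1 TPM in 3 or more libraries) on log2(TPM + 1), which understates changes of low genes. Shares and ratios were described without a test; loci of the lists and flanking loci were read from the same fit, with no test of a list or region as a whole. All 10 members were named; of other loci, OsEXPA7 and flanking loci changed at least 4-fold. The fit was also run on simulated data, with independent normal values and far fewer changed loci than were called here. That run does not show how the fit performs on these libraries. Members and lists were chosen with earlier results of these data known. Alternatives were a smaller pseudocount (0.1), no filter or one at 5 TPM, median-of-ratios scaling, quantile normalization, other variance models, library weights, the replicate block, and leaving out each library. Libraries with the same replicate number did not deviate together (correlations of 0.0970, -0.0988 and -0.0685).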

Additional observations from a re-analysis of the deposited data

How the results depend on the processing

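The calls of SSIIIb and SSIVa held under all 15 alternatives. The number of starch synthases called higher was 3 as reported, 2 after quantile normalization, 4 with library weights and 3 to 5 when a library was left out, the 5 being without overexpression replicate 1. No starch synthase was called lower under any of the 15, and in the reported fit the lowest log2 change of the 9 tested was 0.07, above 0. With library weights SSIVb passed (limma adjusted p = 0.0200). The summed starch synthase difference, 25.1 TPM as deposited, was 13.5 TPM after quantile normalization and 18.2 to 31.6 TPM with a library left out. The replicate block, whose numbers the labels do not tie to plants, left 3 starch synthases higher and gave 5513 higher and 3751 lower loci in all, against 5911 and 4091. As deposited, 59.1% of all calls were in the higher direction; scaling by median of ratios gave 5112 higher and 4975 lower loci, and after quantile normalization 4598 and 5467. The median log2 change of the starch synthases, whose alternatives were chosen after seeing the data, was 0.12 after quantile normalization and 0.13 without overexpression replicate 2. With a filter at 5 TPM SSIIa was not tested. With 5 loci on either side, 20.0% of the loci around SSIIb and around SSIVb were called, in place of 45.0% and 35.0%. The cause of these shifts was not tested. Depth is unknown, which limits statements on Wx/GBSSI and on loci listed at 0.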
